A study of Mus musculus with 12 samples.

Results

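The comparison described here set macrophages carrying IRX3_S361A against macrophages carrying wild-type IRX3 (IRX3_WT), in 3 libraries each, 6 of the 12 libraries of the series. IRX3_S361A carries alanine in place of a serine of the IRX3 protein, and alanine cannot be phosphorylated. The cells were bone-marrow-derived macrophages (BMDMs) of Irx3-/- mice of the C57BL/6J strain, grown out of marrow over 7 days with M-CSF, the macrophage growth factor, at 20 nM. All of them were then exposed to 100 ng/ml of lipopolysaccharide (LPS) for 4 h before total RNA was taken, so the data hold no unstimulated cells and no cells with their own Irx3 gene. Each construct was delivered by infection with adeno-associated virus (AAV). The other 2 groups, also of 3 libraries each, carried IRX3_S389A, with alanine in place of another serine, or GFP as a control with no IRX3. The promoter of the constructs, the species of their IRX3 sequence and the share of cells infected are not known from the sources used here. Nor do these say whether replicates came from separate animals or cultures, so p-values measure the spread between these libraries, which may be technical.

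IRX3 belongs to the Iroquois homeobox transcription factors and is best known for its roles in tissue patterning and, through its neighbourhood with Fto, in the control of body weight. LPS is sensed by Toll-like receptor 4, whose signal runs through the transcription factors NF-kappaB and AP-1 to genes of cytokines, chemokines and inflammatory enzymes, and through interferon beta to a second set of interferon-stimulated genes. Macrophages in this state also change their lipid synthesis, sugar metabolism and division.

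The deposited values are gene counts divided by 1 size factor per library, called normalized counts below, and 18743369 to 18889490 of them were assigned to genes in IRX3_S361A libraries, against 19513613 to 19796325 in IRX3_WT libraries. In bulk RNA, fewer cells of a type and less RNA per cell cannot be told apart. The defining macrophage markers were present in every library: all 8 listed markers were tested, and their summed level was 370200 to 377500 in IRX3_S361A libraries, against 330100 to 335300 in IRX3_WT libraries. Most of that gap was Lyz2, with 246100 to 254500 in IRX3_S361A libraries, against 208900 to 213600 in IRX3_WT libraries; Fcgr1 was also higher, Mertk was lower (a call lost with equal totals and without replicate 1 of IRX3_WT or of both groups) and the other 5 were not called. Of the markers of other cell types, those of neutrophils summed to 28.3 to 48.7 normalized counts (IRX3_S361A), against 43.2 to 64.4 (IRX3_WT), with 3 of 10 at 0 in every library. Markers of stromal and endothelial cells reached 1182 to 1385 in IRX3_S361A libraries, against 1213 to 1476 in IRX3_WT libraries, most of it Kdr, and Pdgfrb was called lower (log2 difference -0.87). Markers of erythroid, megakaryocyte and mast cells reached 3499 to 3695 in IRX3_S361A libraries, against 4098 to 4302 in IRX3_WT libraries. Nearly all of this was Pf4, a platelet chemokine gene that was called lower (log2 difference -0.21), and the other 8 of the 9 were under 10 in every library. The part of other cells in the results was not tested. The first replicates of both groups had the strongest trends of expression with transcript GC content, in opposite directions, and calls lost or list counts moved by over 1.5 times and at least 2 genes without both are named beside the result.

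Irx3 itself differed. Its transcript gave 324, 364 and 358 normalized counts in the 3 IRX3_S361A libraries, against 165, 170.3 and 196 in IRX3_WT libraries. All IRX3_S361A libraries lay above all IRX3_WT libraries, and no GFP library held a read of the gene. The log2 difference was 0.97 (SE 0.19, limma adjusted p = 0.000197), computed like every difference below as IRX3_S361A minus IRX3_WT on log2(normalized count + 1). The substitution and the higher transcript level therefore cannot be told apart in any result below. The Irx3 gene spans chromosome 8 positions 91798525 to 91802067 on the minus strand (GRCm38). Of 6 tested Iroquois genes and neighbours of Fto, Irx3 rose and 1 fell. Fto, the demethylase gene next to Irx3, had 532, 494 and 557 normalized counts in IRX3_S361A libraries, against 488, 487 and 487 in IRX3_WT libraries, a log2 difference of 0.11 that did not pass the test (limma adjusted p = 0.344).

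Of 13369 genes tested, 2071 were called at a Benjamini-Hochberg adjusted p under 0.05, which is 15.5% of the tested genes. Genes higher with IRX3_S361A numbered 859 (6.43%), and genes lower numbered 1212 (9.07%). With every library scaled to the same total the split was 1805 higher and 754 lower, because the median gene then moved by 0.07 on the log2 scale. Most differences were small: 115 called genes were at least 1.5-fold higher (0.860% of those tested) and 153 at least 1.5-fold lower (1.14%). Without replicate 1 of both groups, 422 genes were higher and 737 lower, and 1093 of the 2071 were called again in the same direction. The libraries of the 2 groups did not overlap in 1879 genes higher with IRX3_S361A (14.1%) and 2036 genes lower (15.2%).

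**Figure D1:**
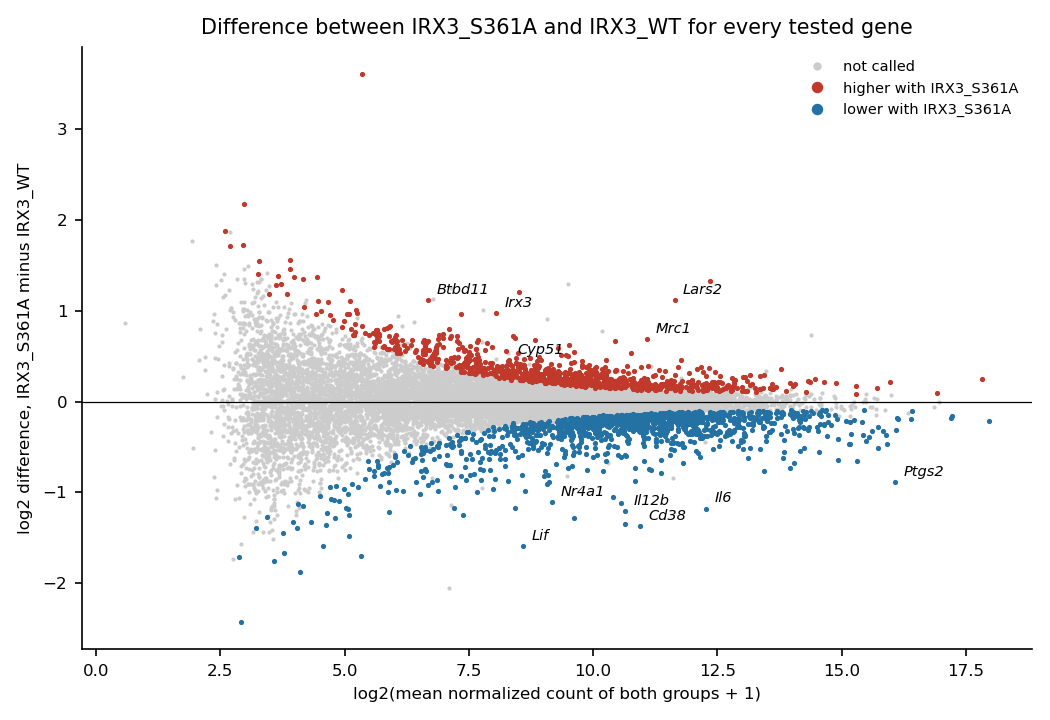
Log2 difference of each tested gene (IRX3_S361A minus IRX3_WT, vertical) against its mean level over both groups (horizontal, log2 of the mean normalized count + 1). Red points mark the 859 genes called higher, blue points the 1212 called lower and grey points the rest; Lif, Il12b, Il6 and Cd38 stand below -1, and Btbd11 and Lars2 above 1.

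The interleukin 12 and interleukin 6 families, which signal to lymphocytes and to the acute-phase response, held more falls than rises with IRX3_S361A. Of 10 tested genes of the interleukin 12 family 4 fell, 5 were not called and 1 rose (a receptor gene whose exons overlap another gene, so its reads are uncertain), with a median log2 difference of -0.39, against 0.01 over all tested genes. Il12b encodes the subunit shared by interleukins 12 and 23 and had 925, 1094 and 893 normalized counts in IRX3_S361A libraries, against 2348, 2105 and 2247 in IRX3_WT libraries. Il12a, the other subunit of interleukin 12, had 123, 132 and 144 in IRX3_S361A libraries, against 245, 349 and 219.6 in IRX3_WT libraries. In both genes the highest IRX3_S361A library lay below the lowest IRX3_WT library. Il12a fell by 0.99 (SE 0.15, limma adjusted p = 2.56e-06). Il27, a subunit of the cytokine interleukin 27, had 2245, 2007 and 1894 normalized counts in IRX3_S361A libraries, against 3179.9, 3412 and 3030.2 in IRX3_WT libraries. It fell by 0.65 (SE 0.05), and again no library of one group reached the range of the other. Il23a, the partner of Il12b in interleukin 23, had a log2 difference of -0.70 (SE 0.49) and did not pass the test (limma adjusted p = 0.389).

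In the interleukin 6 family 4 of 8 tested genes fell, 3 were not called and 1 rose (median -0.39). Lif, the leukaemia inhibitory factor gene on the plus strand of chromosome 11 (4257557 to 4272514), had 159, 208 and 207 normalized counts in IRX3_S361A libraries, against 615, 531 and 583 in IRX3_WT libraries. Il6 itself had 2820.0, 3238 and 3037 in IRX3_S361A libraries, against 7488, 6453 and 6667 in IRX3_WT libraries. Osm, encoding oncostatin M, had 361.4, 412 and 389.01 in IRX3_S361A libraries, against 745, 672 and 728 in IRX3_WT libraries. For all 3 genes the groups were well apart, with every IRX3_S361A library below every IRX3_WT library and the widest gap in Lif (log2 differences of -1.59 for Lif, -1.18 for Il6 and -0.88 for Osm). The 1 gene of the family that rose was a receptor: Il6ra had 287, 333 and 283 normalized counts in IRX3_S361A libraries, against 173, 209.8 and 213 in IRX3_WT libraries, and 523 ± 17.3 in GFP libraries. Its log2 difference was 0.60 (SE 0.10, limma adjusted p = 1.74e-05). In the interleukin 1 family 2 of 10 tested genes fell and 8 were not called: Il1a fell by 0.66 and Il1b fell by 0.47 on the log2 scale.

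**Figure D2:**
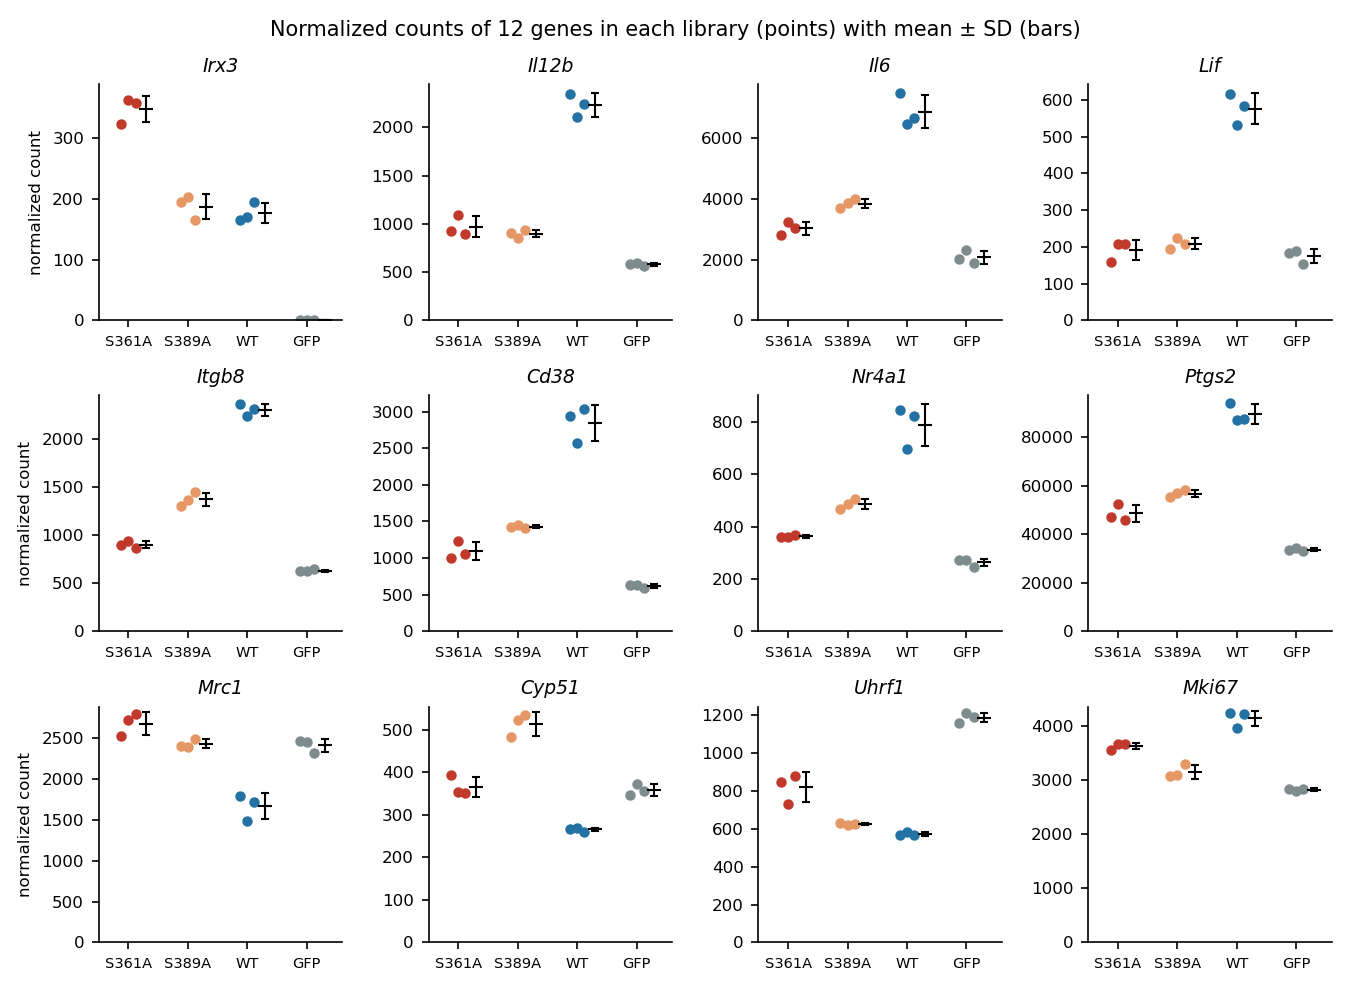
Normalized counts (vertical, from 0) of 12 genes in each library of the groups IRX3_S361A, IRX3_S389A, IRX3_WT and GFP, with the mean ± SD of the 3 libraries beside the points. In the cytokine genes Il12b, Il6 and Lif the 3 IRX3_S361A libraries lie below all 3 IRX3_WT libraries, whereas in Mrc1, Cyp51 and Uhrf1 they lie above.

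Several of the genes that fell are classical targets of NF-kappaB, and the promoters of 3 of them are shown for the sites they carry. Each line gives the 250 bases before the RefSeq start of the gene (GRCm38.p6), 5′ to 3′ on the gene's strand, with matches to the NF-kappaB consensus in capitals. The Il6 window is chr5:30012864-30013113 and its match starts at position -44 from the gene's start. The Lif window is chr11:4257318-4257567 (match at -178), and the Cxcl1 window is chr5:90890995-90891244, where 2 overlapping matches begin at -71 and -70.
Il6: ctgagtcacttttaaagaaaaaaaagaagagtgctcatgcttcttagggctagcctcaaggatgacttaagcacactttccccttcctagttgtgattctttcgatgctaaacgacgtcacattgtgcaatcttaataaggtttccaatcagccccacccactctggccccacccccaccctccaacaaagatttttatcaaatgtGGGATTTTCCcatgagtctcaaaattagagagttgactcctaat
Lif: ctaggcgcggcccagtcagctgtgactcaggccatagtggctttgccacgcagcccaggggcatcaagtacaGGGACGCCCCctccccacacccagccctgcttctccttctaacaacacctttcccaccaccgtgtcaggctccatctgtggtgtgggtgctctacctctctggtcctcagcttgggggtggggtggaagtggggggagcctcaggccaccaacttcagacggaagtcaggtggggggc
Cxcl1: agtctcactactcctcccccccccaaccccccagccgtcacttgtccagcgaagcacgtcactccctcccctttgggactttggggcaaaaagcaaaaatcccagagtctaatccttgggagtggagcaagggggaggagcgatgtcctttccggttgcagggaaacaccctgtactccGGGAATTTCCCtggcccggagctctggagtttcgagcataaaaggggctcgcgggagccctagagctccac
Searched on both strands, this consensus was found in 17 of 101 promoters of genes at least 1.5-fold lower (16.8%) and in 3 of 87 promoters of genes at least 1.5-fold higher (3.45%), with 8.54% over the 9493 tested genes that have a RefSeq promoter. Over all genes called lower the share was 11.7% of 916 promoters, and over all called higher 7.61% of 683. The AP-1 site, searched as TGANTCA, was found in 5.94% of the promoters at least 1.5-fold lower and 5.75% of those at least 1.5-fold higher. Its share over all tested genes was 4.33%. The cyclic AMP response element, searched as TGACGTCA, was found in 1.98% and 0% of these sets, with 2.79% over all. A match describes letters in the window and does not show binding.

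Of 18 colony-stimulating and growth factor genes 8 fell and 1 rose (median -0.34), or 5 fell without IRX3_WT replicate 1. Igf1, encoding insulin-like growth factor 1, had 6459.9, 6423 and 6493 normalized counts in IRX3_S361A libraries, against 9255, 9052 and 8839 in IRX3_WT libraries, a log2 difference of -0.49 (SE 0.04). Inhba, encoding a subunit of activin A, had 323, 447 and 399 in IRX3_S361A libraries, against 665, 588 and 719 in IRX3_WT libraries. Neither gene had overlapping groups. IRX3_S361A lay below GFP for Igf1 (GFP 7185 ± 96.6) and above it for Inhba (GFP 207 ± 7.85). Hgf, the hepatocyte growth factor gene, fell by 0.47, the growth factor gene Ereg fell by 0.49 and the endothelin gene Edn1 fell by 0.46 on the log2 scale. The call of Hgf was lost without IRX3_S361A replicate 3, without IRX3_WT replicate 1 and without replicate 1 of both groups.

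Of 13 CXC chemokine genes 7 fell and 0 rose (median -0.21). Those for neutrophil chemoattractants fell most: Cxcl5 had 118, 155 and 148 normalized counts in IRX3_S361A libraries, against 254, 211 and 269.7 in IRX3_WT libraries. Cxcl3 had 11625, 12087 and 12180.0 in IRX3_S361A libraries, against 20928, 20439.8 and 18483 in IRX3_WT libraries, and the log2 difference of Cxcl1 was -0.66 (SE 0.08, limma adjusted p = 0.000351). All 3 were without overlap between the groups. Of 11 CC chemokine genes 5 fell and 2 rose. Ccl3 fell by 0.44 and Ccl9 fell by 0.32, while the monocyte chemoattractant gene Ccl7 rose by 0.24 on the log2 scale.

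Transcription factor genes of the LPS response were also called lower more often than higher. Of 14 NF-kappaB subunits and IkB proteins 9 fell and 0 rose (median -0.18). Rel, the c-Rel subunit needed for Il12b transcription, had 6473, 6677 and 6448 normalized counts in IRX3_S361A libraries, against 8577, 8027 and 7752 in IRX3_WT libraries, a log2 difference of -0.31 (SE 0.04, limma adjusted p = 1.54e-07). Nfkb1 fell by 0.19 and the inhibitor gene Nfkbia fell by 0.20, while Rela (-0.01) and Relb (0.00) did not pass the test. Of 21 ubiquitin and CARD regulators of the pathway 8 fell and 1 rose. Malt1, the protease of the CARD complex, had 15808, 16372 and 15510.2 in IRX3_S361A libraries, against 23186, 21884 and 23055 in IRX3_WT libraries, and the ubiquitin-editing enzyme gene Tnfaip3 fell by 0.35. The groups did not overlap for Rel, Malt1 or Tnfaip3.

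Among 17 AP-1 genes 7 fell and 1 rose, and among 15 genes of the Nr4a and Egr group 7 fell and 0 rose (medians -0.19 for both lists). Fosl2 had 1541, 1897 and 1665 normalized counts in IRX3_S361A libraries, against 2951, 2569 and 3071 in IRX3_WT libraries. Nr4a1, an orphan nuclear receptor gene induced early by LPS, had 361.4, 360.8 and 369.9 in IRX3_S361A libraries, against 847, 696 and 825 in IRX3_WT libraries. The IRX3_S361A libraries of Nr4a1 were close together and all below 696, the lowest IRX3_WT library. Its relative Nr4a3 fell by 0.81 and Egr1 fell by 0.50, whereas Egr2 (0.03) and Egr3 (-0.31, SE 0.22) did not pass. Kdm6b, a histone H3 demethylase induced by LPS, fell by 0.74 (SE 0.07, limma adjusted p = 4.55e-09).

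Among genes that end or limit the LPS response more fell than rose, but many were not called. Of 16 phosphodiesterase, Gadd45 and other LPS feedback genes 8 fell, 8 were not called and 0 rose (median -0.26), and of 12 MAP kinase phosphatases 4 fell, 8 were not called and 0 rose. Pde4b, which breaks down cyclic AMP, had 5068, 5275 and 5033 normalized counts in IRX3_S361A libraries, against 7243, 6649 and 6726 in IRX3_WT libraries. Dusp1, a phosphatase of p38 and JNK, fell by 0.28 and Rgs1, a brake on chemokine receptors, fell by 0.41. Of 16 genes of interleukin 10, Stat3 and Socs feedback 6 fell, 8 were not called and 2 rose, or 10 fell after GC correction; 0 rose without replicate 1 of IRX3_WT or of both groups. The kinase gene Pim1 and Stat3 had log2 differences of -0.35 and -0.17, both called lower, while the anti-inflammatory cytokine gene Il10 (-0.17, SE 0.08) and the feedback gene Socs3 (-0.04, SE 0.04) did not pass. Of 15 regulators of cytokine mRNA decay 6 fell, 8 were not called and 1 rose, and Zc3h12a, the gene of the RNase Regnase-1, fell by 0.23; without replicate 1 of both groups 2 of the 15 fell, and with equal totals 3. The 3 IRX3_S361A libraries of Pde4b all lay below the IRX3_WT libraries.

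Of 24 integrin and adhesion genes 11 fell and 2 rose. Itgb8, whose integrin activates latent TGF-beta, lies on the minus strand of chromosome 12 (119158022 to 119238802). It had 898, 940.3 and 863 normalized counts in IRX3_S361A libraries, against 2359, 2238 and 2302 in IRX3_WT libraries. Its 3 IRX3_S361A libraries lay far below the IRX3_WT range and above the GFP mean of 631 ± 10.3. Vcam1, the receptor for the integrin of Itga4, fell by 0.61 and Itga4 fell by 0.33, while Itgax and Itgb7 rose by 0.13 and 0.28 on the log2 scale. Neither rise passed the test when the first replicate of either group, or of both, was left out, so that 0 of the 24 rose, whereas with equal totals 5 did. Itgax, also counted with complement below, lost its call after GC correction too (log2 difference 0.09, limma adjusted p = 0.126). The same call was lost without IRX3_S361A replicate 2 or IRX3_WT replicate 3. Of 22 costimulatory and checkpoint ligands 12 fell and 1 rose (median -0.23). Cd40 fell by 0.45, Cd80 fell by 0.44, Cd83 fell by 0.51 and Cd274, which encodes PD-L1, fell by 0.38. Cd86 had a log2 difference of -0.21 and did not pass (limma adjusted p = 0.0754). Cd38, an ectoenzyme that degrades NAD, had 1005, 1236 and 1058 normalized counts in IRX3_S361A libraries, against 2943, 2570.0 and 3032 in IRX3_WT libraries, with no overlap.

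Fc receptor genes held calls in both directions. The inhibitory Fc receptor gene Fcgr2b had 1536, 1697 and 1745 normalized counts in IRX3_S361A libraries, against 2755, 2592 and 2961 in IRX3_WT libraries. The adenosine receptor gene Adora2a had 1360.4, 1319.9 and 1202 in IRX3_S361A libraries, against 2298, 2494 and 2346 in IRX3_WT libraries. Groups did not overlap in either gene, and the log2 differences were -0.74 and -0.88 (SE 0.05 and 0.05). The activating Fc receptor genes Fcgr1 and Fcgr3 rose by 0.31 and 0.34. Over the 12 Fc receptor and signalling genes 4 rose and 2 fell, and over 30 G protein-coupled receptor genes 5 rose and 11 fell (3 rose without replicate 1 of IRX3_WT or of both groups).

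Of 42 interferon-stimulated effector genes 5 rose and 9 fell, with a median of -0.05 that turned to 0.01 with equal totals; without replicate 1 of both groups 1 rose and 8 fell. Rises numbered 8 with equal totals and 3 after GC correction. Without IRX3_S361A replicate 1 alone 1 rose, without IRX3_WT replicate 1 or 3 alone 3 rose, and without IRX3_WT replicate 3 the falls numbered 16. Ifit2 fell by 0.26 and Rsad2, encoding viperin, fell by 0.19, whereas Bst2, encoding tetherin, rose by 0.17. The call of Bst2 was lost without replicate 1 of both groups (limma adjusted p = 0.0526), and that of Rsad2 after GC correction. The guanylate-binding and immunity-related GTPases, which attack the vacuoles of intracellular microbes, fell in 9 of 17 genes and rose in 0 (median -0.26). Iigp1 had 2779.5, 2898 and 2571 normalized counts in IRX3_S361A libraries, against 4704, 4420.5 and 4104 in IRX3_WT libraries, without overlap. Gbp2b and Gbp3 had log2 differences of -0.58 and -0.35, both called lower, although reads of near-identical Gbp genes may be split uncertainly between them.

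Of 20 prostaglandin and leukotriene genes 7 fell and 3 rose. Ptgs2, the inducible cyclooxygenase gene, had 47208, 52418 and 45969 normalized counts in IRX3_S361A libraries, against 94027, 87059 and 87339 in IRX3_WT libraries. Ptges, which makes prostaglandin E from its product, had 7884, 8660.0 and 7990.3 in IRX3_S361A libraries, against 13789, 12956 and 15036 in IRX3_WT libraries. Ptgs1, the constitutive cyclooxygenase gene, went the other way, with 258, 233 and 261 in IRX3_S361A libraries, against 161, 175 and 134 in IRX3_WT libraries. None of the 3 genes had overlapping groups, and the log2 difference was -0.77 for Ptges and 0.68 for Ptgs1 (SE 0.04 and 0.11). Of 19 antimicrobial and acute-phase genes 11 fell and 1 rose (median -0.28). Slpi, a secreted protease inhibitor gene, fell by 0.63, Ptx3, a soluble pattern recognition molecule, fell by 0.87 and Cybb, the catalytic subunit of the phagocyte oxidase, fell by 0.28. The 1 that rose was the lysozyme gene Lyz2, by 0.25 (SE 0.02, limma adjusted p = 5.94e-10).

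Of 33 genes of glycolysis and HIF1A 17 fell and 1 rose (median -0.14). Slc2a1, the main glucose transporter gene, had 2796, 3139.8 and 3038 normalized counts in IRX3_S361A libraries, against 4063, 3955 and 4259 in IRX3_WT libraries. Slc16a3, which exports lactate, fell by 0.44, the mitochondrial adenylate kinase gene Ak4 fell by 0.85 and Hif1a itself fell by 0.53 on the log2 scale. Among 22 NRF2 antioxidant genes 9 fell and 0 rose, with the haem oxygenase gene Hmox1 at 5784, 6140.4 and 6081 in IRX3_S361A libraries, against 8682, 7734 and 7953 in IRX3_WT libraries. The cystine transporter gene Slc7a11 fell by 0.54 and Srxn1, encoding sulfiredoxin, fell by 0.38. Groups did not overlap for Slc2a1 or Hmox1.

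Genes of arginine and itaconate metabolism and of cell death were called lower more often than higher. Of 17 arginine, nitric oxide and itaconate genes 7 fell and 3 rose, but 5 fell and 5 rose with equal totals. Without IRX3_S361A replicate 1 or IRX3_WT replicate 3, 1 rose. Acod1, which makes itaconate, had 145048, 143979 and 139115 normalized counts in IRX3_S361A libraries, against 165503, 160473 and 153687 in IRX3_WT libraries. Its groups did not overlap, and the arginine transporter gene Slc7a2 fell by 0.64. Of 17 inflammasome and pyroptosis genes 5 fell and 0 rose. The sensor gene Nlrp3 fell by 0.38 and Mefv, encoding the sensor pyrin, fell by 0.33. Both without replicate 1 of both groups and with equal totals the inflammasome falls numbered 2 of 17, and without IRX3_S361A replicate 3 or IRX3_WT replicate 1 they numbered 3. Among 27 genes of the amino-acid and endoplasmic reticulum stress responses calls went both ways. Targets of ATF4 such as Asns, asparagine synthetase, and Psat1, of serine synthesis, had log2 differences of -0.32 and -0.24, both called lower, whereas the disulfide isomerase genes Pdia4 and Pdia6 rose by 0.27 and 0.24. In all 7 of these genes rose and 8 fell, or 5 and 4 without replicate 1 of both groups. Falls numbered 4 without IRX3_S361A replicate 1 alone and 5 without IRX3_S361A or IRX3_WT replicate 2.

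**Figure D3:**
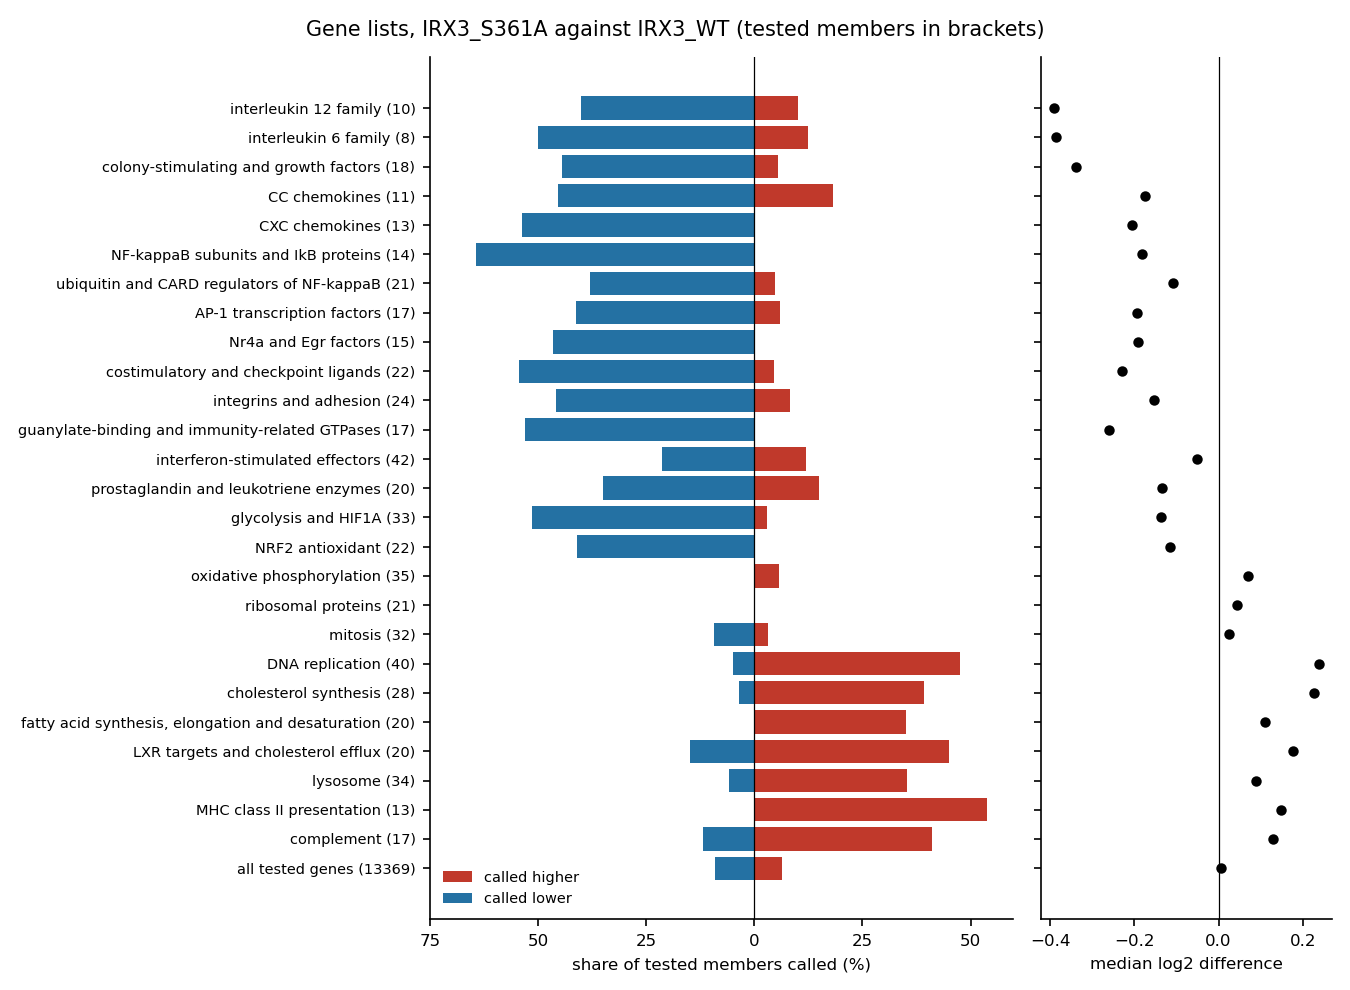
Share of the tested members of each gene list that were called lower (blue, left) or higher (red, right) with IRX3_S361A than with IRX3_WT, and the median log2 difference of the list (black points). Lists of cytokines, signalling factors and adhesion molecules lie left of 0, those of DNA replication, lipid synthesis, lysosome and MHC class II presentation right of it, and the last row gives all tested genes for reference.

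Of 22 listed genes of alternative activation 13 were tested. Among these 13, 4 rose, 2 fell and 7 were not called (median 0.19). Mrc1, the mannose receptor gene, lies on the plus strand of chromosome 2 (14229392 to 14332057) and had 2519, 2723 and 2791 normalized counts in IRX3_S361A libraries, against 1792, 1491 and 1716 in IRX3_WT libraries. The haemoglobin scavenger receptor gene Cd163 had 144, 213 and 161 in IRX3_S361A libraries, against 102, 95.5 and 116 in IRX3_WT libraries. Among the largest rises outside both this list and that of scavenger receptors was Cd207, encoding the lectin langerin, with 526, 569 and 589 normalized counts in IRX3_S361A libraries, against 337, 349 and 362 in IRX3_WT libraries. In all 3 genes every IRX3_S361A library exceeded every IRX3_WT library, which was a condition for naming the largest rises, such as Cd207. The log2 differences were 0.69 (Mrc1, SE 0.05), 0.70 (Cd163, SE 0.13) and 0.68 (Cd207, SE 0.07). Timd4, a receptor for apoptotic cells, rose by 0.44 and Stab1, another scavenger receptor, by 0.29. The list of 24 scavenger and phagocytic receptors held more falls than rises, with 6 higher and 9 lower, but 10 higher and 7 lower with equal totals. Marco and Clec4e, both induced by LPS, had log2 differences of -0.49 and -0.36, both called lower, and the oxidized lipoprotein receptor gene Olr1 fell by 0.59.

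The promoters of Mrc1 and Cd207 are shown because each holds a match to ACANNTGT, the palindromic site bound by the Iroquois proteins of Drosophila (in capitals, searched on both strands). The windows are chr2:14229164-14229413 on the plus strand for Mrc1, with its match at position -187, and chr6:83677858-83678107 on the minus strand for Cd207, with its match at -241 (RefSeq, GRCm38.p6, 250 bases before the start).
Mrc1: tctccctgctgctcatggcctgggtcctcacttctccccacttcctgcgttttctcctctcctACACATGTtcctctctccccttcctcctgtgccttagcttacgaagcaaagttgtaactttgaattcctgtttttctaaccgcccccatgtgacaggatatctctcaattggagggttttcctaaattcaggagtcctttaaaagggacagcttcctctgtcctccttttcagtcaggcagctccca
Cd207: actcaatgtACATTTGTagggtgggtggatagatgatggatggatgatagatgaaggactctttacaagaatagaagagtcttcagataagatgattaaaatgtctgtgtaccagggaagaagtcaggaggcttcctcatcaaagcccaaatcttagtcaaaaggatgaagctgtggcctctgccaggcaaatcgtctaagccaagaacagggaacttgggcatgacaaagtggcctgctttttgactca
The site was found in 9 of 87 promoters of genes at least 1.5-fold higher (10.3%) and in 2 of 101 promoters of genes at least 1.5-fold lower (1.98%), with 3.01% over all 9493. Over all genes called higher it was found in 5.12%, and over all called lower in 2.18%. These shares are descriptions of short windows and were not tested.

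MHC class II presentation, complement and the lysosome also held more rises than falls. Of 13 genes of MHC class II presentation 7 rose and 0 fell (median 0.15). H2-Eb1, a beta chain, had 3889.9, 3718 and 3664 normalized counts in IRX3_S361A libraries, against 2842, 3114 and 2707 in IRX3_WT libraries, a log2 difference of 0.38 (SE 0.05). H2-Aa rose by 0.27 and the reductase gene Ifi30 by 0.31, but Ciita, the master regulator of the class, had a difference of -0.16 that did not pass (limma adjusted p = 0.581). Of 23 genes of MHC class I presentation 3 rose and 2 fell (median 0.01), or 4 rose and 7 fell after GC correction, 2 and 3 without replicate 1 of both groups, and 5 and 2 with equal totals. Of 17 complement genes 7 rose and 2 fell: C3ar1 and properdin (Cfp) rose by 0.20 and 0.24, and C3 fell by 0.29. Of 34 lysosomal genes 12 rose and 2 fell (median 0.09). Lamp1 rose by 0.23 and the glycosidase gene Man2b1 by 0.22, while the transcription factor gene Tfec fell by 0.26. Lamp2 fell by 0.13, a call lost without the first replicate of either group or of both, with equal totals (log2 difference -0.07) and after GC correction (-0.02, limma adjusted p = 0.802). The 5 osteoclast markers summed to 2131 to 2163 normalized counts in IRX3_S361A libraries, against 1668 to 1749 in IRX3_WT libraries. Most of that sum was Acp5, the acid phosphatase gene, which rose by 0.34. Only 2 of the 5 markers were tested, both called higher, and 2 were under 10 in every library. Over 15 tested genes of osteoclast differentiation 4 rose and 3 fell, or 5 and 1 with equal totals. The part of osteoclasts in the results was not tested. Without replicate 1 of both groups the rises numbered 4 of 13 for class II, 4 of 17 for complement and 5 of 34 for the lysosome, and 4 for complement after GC correction as well, while for the lysosome equal totals gave 23 rises, and leaving out IRX3_S361A replicate 1 alone gave 7.

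Of 28 genes of cholesterol synthesis 11 rose and 1 fell (median 0.23). Cyp51, the lanosterol demethylase gene, had 393, 353 and 351 normalized counts in IRX3_S361A libraries, against 268, 269 and 261 in IRX3_WT libraries. Its groups did not overlap (log2 difference 0.46, SE 0.08, limma adjusted p = 8.41e-05), and the GFP mean of 358 ± 13.6 was nearer to IRX3_S361A. Sqle, encoding squalene epoxidase, rose by 0.36, or 0.28 without replicate 1 of both groups, where it did not pass (limma adjusted p = 0.0506). Hmgcs1, of an early step, had a difference of -0.11 that did not pass (limma adjusted p = 0.311). The 1 listed gene that fell was Mylip, a ubiquitin ligase gene that is also counted among the LXR targets below. It fell by 0.24, a call lost without the first replicate of either group or of both and with equal totals.

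A promoter feature common in this list, though not particular to it, is the CAAT box, which binds the factor NF-Y. Counting ATTGG on either strand, 18 of 21 cholesterol genes with a RefSeq promoter held it (85.7%), with 36.7% over all tested genes. These 21 were counted whether called or not. The share was 64.7% of 34 replication promoters, 40.8% over all genes called higher and 32.2% over all called lower. The sterol response element, searched only as TCACNCCAC on both strands, was found in 1 of 21 (4.76%), with 0.959% over all. Variants of this string were not counted, so the share may miss such elements. The Cyp51 window, chr5:4104698-4104947 on the minus strand (RefSeq, GRCm38.p6), shows the CAAT box in capitals at position -29.
Cyp51: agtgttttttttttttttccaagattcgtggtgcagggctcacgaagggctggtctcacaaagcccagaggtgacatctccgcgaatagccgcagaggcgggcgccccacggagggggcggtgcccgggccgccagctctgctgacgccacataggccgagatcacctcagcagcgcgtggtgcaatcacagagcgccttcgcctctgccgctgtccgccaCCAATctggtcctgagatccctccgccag

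Of 20 genes of fatty acid synthesis, elongation and desaturation 7 rose and 0 fell (median 0.11). Fasn, the fatty acid synthase gene, had 1479, 1363 and 1382 normalized counts in IRX3_S361A libraries, against 1059, 1172 and 1122 in IRX3_WT libraries. The desaturase gene Scd2 had 184, 156 and 176 in IRX3_S361A libraries, against 77.8, 113 and 108 in IRX3_WT libraries. Elovl6, a fatty acid elongase gene, rose by 1.11, and Srebf1, the transcription factor gene of the pathway, had a difference of 0.09 that did not pass (limma adjusted p = 0.258). Of 20 LXR targets and cholesterol efflux genes 9 rose and 3 fell (median 0.18). The efflux transporter gene Abcg1 had 1456, 1409 and 1395 in IRX3_S361A libraries, against 1007, 1093 and 1001 in IRX3_WT libraries, Pltp, the phospholipid transfer protein gene, rose by 0.20 and Ch25h, which makes 25-hydroxycholesterol, fell by 0.14, a call lost without replicate 1 of IRX3_S361A or of both groups, without IRX3_WT replicate 2 and with equal totals. Falls among LXR targets numbered 1 in each of these fits except equal totals, where they numbered 0. No library of one group reached the range of the other in Fasn, Scd2 or Abcg1. Without replicate 1 of both groups the rises numbered 7 of 28 for cholesterol, 4 of 20 for fatty acids and 5 of 20 for LXR targets; without IRX3_WT replicate 1 alone they were 7 for cholesterol and 4 for fatty acids.

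**Figure D4:**
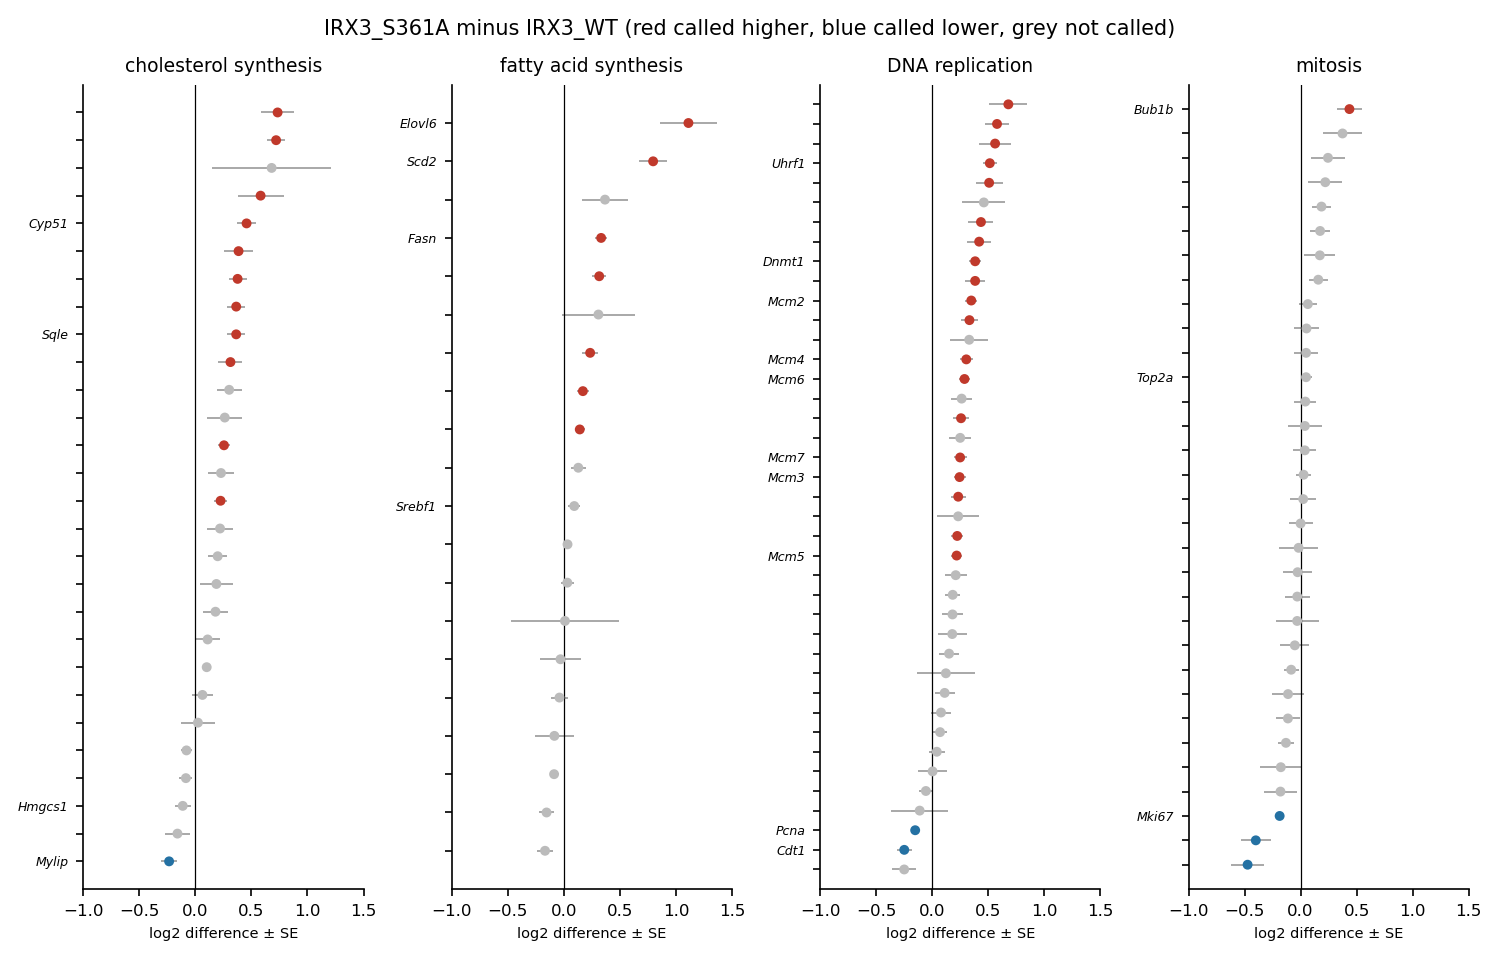
Log2 difference (IRX3_S361A minus IRX3_WT, horizontal, with its SE) of every tested gene of 4 lists, sorted by size, with the genes named in the text labelled. Most members of cholesterol synthesis, fatty acid synthesis and DNA replication lie right of 0, with genes called higher in red. Genes called lower are in blue, 1 in cholesterol synthesis and 2 in DNA replication. Mitosis genes are spread around 0 with 1 called higher and 3 called lower.

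Of 40 replication genes 19 rose and 2 fell (median 0.24). Uhrf1, which recruits the maintenance DNA methyltransferase, lies on chromosome 17 (56303321 to 56323486). It had 847, 733 and 879.5 normalized counts in IRX3_S361A libraries, against 567, 582 and 568 in IRX3_WT libraries. The methyltransferase gene Dnmt1 had 1436, 1283 and 1354 in IRX3_S361A libraries, against 1039, 1057 and 1024 in IRX3_WT libraries. Mcm2, a subunit of the replicative helicase, had 1153, 1079 and 1109.7 in IRX3_S361A libraries, against 857, 889.9 and 877 in IRX3_WT libraries. The groups did not overlap in any of the 3, and GFP libraries were higher still, with means of 1187 ± 25.7 for Uhrf1, 2214 ± 40.9 for Dnmt1 and 1403 ± 17.6 for Mcm2. The other helicase subunit genes Mcm3, Mcm4, Mcm5, Mcm6 and Mcm7 rose by 0.22 (Mcm5) to 0.30 (Mcm4) on the log2 scale. Without replicate 1 of both groups 3 of these 5 did not pass: Mcm3 (0.18, limma adjusted p = 0.0627), Mcm5 (0.13, adjusted p = 0.115) and Mcm7 (0.20, adjusted p = 0.0673). Pcna, the sliding clamp, and Cdt1, the licensing factor, had log2 differences of -0.15 and -0.25, both called lower, although the call of Pcna was lost without replicate 1 of IRX3_WT or of both groups and with equal totals. Of 32 mitosis genes 1 rose and 3 fell (median 0.03), or 1 fell without IRX3_S361A replicate 2 or 3. Mki67, the proliferation marker, had 3567, 3671 and 3673 in IRX3_S361A libraries, against 4236, 3973 and 4217 in IRX3_WT libraries, and fell by 0.19, while the kinase gene Bub1b rose by 0.44, a call lost without IRX3_WT replicate 1. Without replicate 1 of both groups, 12 of the 40 replication genes rose.

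Of 26 genes of E2F factors and G1 cyclins 5 rose and 5 fell, but 2 rose without IRX3_S361A replicate 1, without IRX3_WT replicate 3 or without replicate 1 of both groups, and 3 without IRX3_WT replicate 1 or after GC correction. Ccnd2, a G1 cyclin gene, fell by 0.65 and Cdkn1a, encoding the inhibitor p21, fell by 0.30. Of 18 p53 targets 7 fell, among them Cdkn1a and Mdm2 (log2 difference -0.28 for Mdm2), and Sesn1 rose; with equal totals 4 of the 18 fell.

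Sites of the E2F factors, which drive S phase genes, were found in 8 of 34 replication promoters (23.5%), with 3.2% over all tested genes. The 34 include replication genes that were not called. Over all genes called higher the share was 3.81%, or 2.3% of those at least 1.5-fold higher, and over all called lower 2.18%. The E2F sites were searched as TTTCGCGC, TTTGGCGC and TTTCCCGC on both strands. The Mcm6 window, chr1:128359706-128359955 on the minus strand (RefSeq, GRCm38.p6), holds 3 of them, in capitals, of which those at positions -110 and -106 overlap and the other starts at -47.
Mcm6: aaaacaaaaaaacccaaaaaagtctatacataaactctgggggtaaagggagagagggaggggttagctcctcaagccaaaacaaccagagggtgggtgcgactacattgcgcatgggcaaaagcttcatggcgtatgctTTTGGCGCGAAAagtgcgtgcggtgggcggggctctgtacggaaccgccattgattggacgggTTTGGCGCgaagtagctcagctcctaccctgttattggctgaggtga

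Other large rises included Btbd11, with 146, 143 and 128 normalized counts in IRX3_S361A libraries, against 61.0, 56.1 and 74.0 in IRX3_WT libraries. Sesn1, a stress-induced regulator of growth signalling, had 211, 185 and 243 in IRX3_S361A libraries, against 113, 132 and 84.2 in IRX3_WT libraries, and 498 ± 17.5 in GFP libraries. Rapgef5, an exchange factor for small GTPases, had 1667, 1580.3 and 1839 in IRX3_S361A libraries, against 1045, 999 and 1169 in IRX3_WT libraries. All 3 were without overlap, which was a condition for naming the largest rises. IRX3_S361A was close to GFP for Btbd11 (GFP 149 ± 12.9) and Rapgef5 (GFP 1603 ± 63.3). Lars2, a mitochondrial leucyl-tRNA synthetase gene, passed the test narrowly, with 4000.2, 3301 and 5825 in IRX3_S361A libraries, against 2299.8, 2141 and 1524 in IRX3_WT libraries. Its IRX3_S361A libraries were spread widely, and its log2 difference of 1.12 had an SE of 0.32 (limma adjusted p = 0.0492). The adjusted p was 0.108 without IRX3_S361A replicate 1 and 0.149 without replicate 3, and the call was lost in 17 of 25 alternatives, among them that without replicate 1 of both groups.

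Further large falls came from genes of varied function. Lad1, a filament-associated protein gene, had 1018, 896 and 956 normalized counts in IRX3_S361A libraries, against 2027, 2287 and 1916 in IRX3_WT libraries. Gfi1, a transcriptional repressor gene, had 195, 235 and 204 in IRX3_S361A libraries, against 440.1, 432 and 564 in IRX3_WT libraries. The actin-bundling gene Fscn1 had 972, 893 and 773 in IRX3_S361A libraries, against 1724, 1927 and 1818 in IRX3_WT libraries. None of the 3 had overlapping groups, which was a condition for naming the largest falls. The log2 differences lay between -1.17 (Gfi1) and -1.06 (Fscn1). Fpr1, the receptor for bacterial formyl peptides, fell by 0.63 on the log2 scale. Thbs1, encoding thrombospondin, fell by 0.94 and the collagen gene Col27a1 fell by 0.99.

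Some groups held few or no calls. Of 35 oxidative phosphorylation genes 2 rose and 0 fell, and of 21 ribosomal protein genes 0 were called, with medians of 0.07 and 0.04. The 2 rises were lost without IRX3_S361A replicate 3, IRX3_WT replicate 1, IRX3_WT replicate 3 or replicate 1 of both groups, and without IRX3_WT replicate 2 they numbered 4, with 2 for ribosomal proteins. With equal totals 15 of the oxidative phosphorylation genes and 11 of the ribosomal protein genes were higher. None of 6 tested genes of noradrenaline handling was called (median -0.04, 0.02 with equal totals). The LPS receptor gene Tlr4 had 1107, 1186 and 1154 normalized counts in IRX3_S361A libraries, against 1243, 1138 and 1183 in IRX3_WT libraries, and these ranges overlapped (log2 difference -0.05, SE 0.06, limma adjusted p = 0.664).

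The same 3 IRX3_S361A libraries differed from GFP in 3457 genes (25.9%), with 1996 higher (14.9%) and 1461 lower (10.9%). With equal totals that split was 1047 higher and 3226 lower, since the median gene moved by -0.11. Because the comparisons share libraries, values are given side by side. Lif averaged 191 ± 28.0 normalized counts with IRX3_S361A, 576 ± 42.7 with IRX3_WT and 175 ± 19.5 with GFP (SD, n = 3 each). Its log2 difference from GFP was 0.13 and did not pass (limma adjusted p = 0.454). Il12b averaged 971 ± 108 with IRX3_S361A, 2233 ± 122 with IRX3_WT and 582 ± 17.5 with GFP, so that IRX3_S361A stayed above GFP by 0.73 (limma adjusted p = 1.26e-11). Mrc1 averaged 2678 ± 142 with IRX3_S361A, 1666 ± 156 with IRX3_WT and 2412 ± 80.5 with GFP. Gpr183, an oxysterol receptor gene, averaged 8.02 ± 2.60 with IRX3_S361A, 9.35 ± 7.09 with IRX3_WT and 184 ± 27.1 with GFP. For this gene the 2 IRX3 groups overlapped, and both were far below GFP.

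IRX3_S361A and IRX3_S389A, whose Irx3 transcripts were also unequal (349 ± 21.5 against 187 ± 20.2 normalized counts, SD, n = 3), differed in 1359 genes (10.2%), 423 higher (3.16%) and 936 lower (7.00%) with IRX3_S361A. With equal totals the split was 1053 higher and 597 lower. Of 42 interferon-stimulated effectors 0 were higher and 30 lower with IRX3_S361A (median -0.29), and of 17 guanylate-binding and immunity-related GTPases 0 were higher and 15 lower (median -0.38). Rsad2 averaged 80633 ± 3739 with IRX3_S361A and 117895 ± 1881 with IRX3_S389A, a log2 difference of -0.55 (limma adjusted p = 1.66e-07). Mitosis genes ran the other way, with 17 of 32 higher and 0 lower (median 0.34), or 10 higher without IRX3_S361A replicate 3. Top2a, the topoisomerase gene of dividing cells, averaged 1918 ± 15.3 with IRX3_S361A and 1499 ± 77.7 with IRX3_S389A, a log2 difference of 0.36. Of 28 cholesterol genes 0 were higher and 10 lower. Il12b and Lif did not pass between the 2 mutants (log2 differences 0.10 and -0.14), but Itgb8 was lower with IRX3_S361A (log2 difference -0.60). Cd55, a complement inhibitor gene, had 1052, 977 and 1112 normalized counts in IRX3_S361A libraries, against 608, 564 and 617 in IRX3_S389A libraries. Tnfsf4, encoding OX40 ligand, had 85.0, 85.5 and 94.5 in IRX3_S361A libraries, against 174, 161 and 191 in IRX3_S389A libraries. The groups did not overlap in either gene, which was a condition for naming the largest differences between the 2 mutants. Without IRX3_S361A replicate 3 the number of called genes between the 2 mutants was 904.

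Genes called in the 2 directions differed in transcript GC content and in mean level. The 859 genes higher with IRX3_S361A had a median transcript GC content of 52.9% and a median mean level of 682 normalized counts. The 1212 genes lower had a median GC content of 45.5% and a median level of 1712, and all tested genes 49.2% and 313. Across 13355 genes the log2 difference rose with GC content (Spearman 0.265), a correlation across genes of the same libraries, which are not independent replicates. It was 0.132 without replicate 1 of both groups. Among the 1336 genes with the lowest GC content 14 were called higher and 249 lower, and among the 1336 with the highest 152 were higher and 65 lower. The part of GC content in the individual gene results was not tested beyond a fit that removed the trend in each library. In that fit 1836 genes were called, 722 higher and 1114 lower, and 1540 of the 2071 were called again in the same direction. There 11 cholesterol and 19 replication genes were higher, and 7 CXC chemokine and 10 NF-kappaB and IkB genes were lower. Some other lists held fewer calls than before, and some held more. Rises went from 7 to 5 for MHC class II, 7 to 5 for fatty acids, 9 to 7 for LXR targets and 7 to 4 for complement. Falls of the guanylate-binding and immunity-related GTPases went from 9 to 7. In contrast, falls went from 2 to 7 for MHC class I and 6 to 10 for interleukin 10, Stat3 and Socs feedback. For glycolysis and HIF1A they went from 17 to 19, and rises of scavenger and phagocytic receptors went from 6 to 8.

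**Figure D5:**
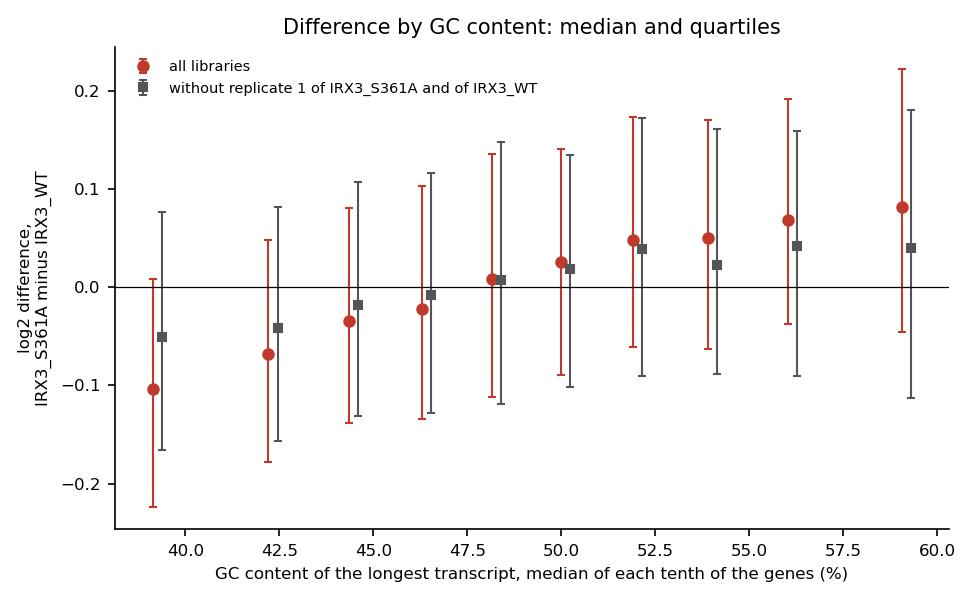
Median log2 difference (IRX3_S361A minus IRX3_WT, vertical) of 10 equal bins of the tested genes, ordered by the GC content of the longest transcript (horizontal, %). Bars span the quartiles; the red points, from all libraries, run from -0.10 to 0.08, and the grey squares, without replicate 1 of both groups, from -0.05 to 0.04.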

How the data were processed

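Total RNA was sequenced from 12 libraries, 3 for each of 4 constructs. Per the submitters' processing notes, reads were trimmed with Trimmomatic and processed with HISAT2 2.1.0 and StringTie 1.3.5 on mm10; the counting tool, the annotation and the use of strand are not stated in those notes or the labels. The deposited values, although described as raw, are gene-level signal: counts that the authors had divided by 1 factor per library. Each value is a whole multiple of 1 step per library (100% of values within 1e-06), and the step gave 17149058 to 20108002 recovered reads per library; 3 reads equal 2.671 to 3.414 normalized counts. Intervals and floors cover counting error only. In 3 libraries the step was near 1, so whole reads were claimed for 9.

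Genes with at least 10 normalized counts in 3 libraries (13369 of 55401) were tested with limma 3.58.1 (trend and robust options, R 4.3.3) on log2(value + 1), with 1 mean per group over all 12 libraries, 8 residual degrees of freedom and Benjamini-Hochberg adjustment at 0.05. The log2 scale understates changes of low genes. edgeR 4.0.16 and DESeq2 1.42.0 on recovered reads were alternatives, and both limma and edgeR were tested on simulated data. Genes were named as Irx3, the 20 largest rises and falls (mean of at least 100, groups apart), the 10 largest each way against IRX3_S389A, the 3 members with the smallest p of each list, and list members whose role is described; among the last, 12 whose calls were lost in alternatives were dropped or replaced by other members after those values were seen, while the list counts hold every tested member. The comparison and the gene lists were chosen with earlier results of these data known. Gene coordinates are from GENCODE M21 and promoters from RefSeq on GRCm38.p6, the assembly of mm10. A few genes are not reported here by name.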

Additional observations from a re-analysis of the deposited data

How the results depend on the processing

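Against IRX3_WT, 2071 genes were called as reported, 859 higher and 1212 lower. Leaving out each library in turn gave 1483 to 2172 calls, 582 to 913 higher, 875 to 1259 lower and 215 to 285 past 1.5-fold. The lowest count came without IRX3_WT replicate 1. Against GFP, 2878 to 3528 genes were called, and against IRX3_S389A 904 to 1415, with 904 without IRX3_S361A replicate 3. Leaving out both first libraries, a choice made after seeing the data, gave 1159 calls, 422 higher, 737 lower and 173 past 1.5-fold. edgeR on the 9 libraries with claimed whole reads, also chosen after seeing the data, gave 1373 calls, 512 of them higher, with 2254 against GFP and 428 against IRX3_S389A; fewer libraries entered both fits. Equal totals gave 1805 higher and 754 lower, through the shift of the median gene. edgeR and DESeq2 on all recovered reads gave 2058 and 1926 calls, and 20877 genes without the filter gave 1888.

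Same-numbered libraries of different groups deviated with correlations of -0.041 to 0.030, so the numbers were not taken to pair the samples. A fit with the replicate number as a block gave 2023 calls, and with the GC correction 1881.

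Of the 140 genes called against IRX3_WT and named above, 25 lost the call in at least 1 of 25 alternatives. Those of Ccl7, Cd163, Cdt1, Elovl6, Pim1, Ptx3 and Stat3 were lost only in edgeR on the 9 libraries with claimed whole reads. That fit had no replicates of IRX3_S361A. The call of Hif1a was lost only with the libraries of the 2 groups alone. As 12 list members with lost calls were dropped from the text or replaced by others after those values were seen, this share is no measure of stability, and the counts over all genes above should be read instead. Of the 140, none turned in direction under any alternative. The depth of the libraries limits what can be said of genes under 10 normalized counts, such as Gpr183 in the IRX3 groups, and 3 libraries per group limit small differences most.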

Other observations

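Tissue-remodelling genes outside the comparisons above also held calls. Of 29 proteases and protease inhibitors 11 fell and 4 rose, or 2 rose without replicate 1 of both groups. Mmp12, the macrophage elastase gene, had 14876, 15579 and 14158 normalized counts in IRX3_S361A libraries, against 19226, 18383 and 19091 in IRX3_WT libraries, and fell by 0.35 (SE 0.04, limma adjusted p = 2.54e-09). Mmp13, a collagenase gene, had 6524, 7496 and 6599 in IRX3_S361A libraries, against 8427, 8333 and 8258 in IRX3_WT libraries. The plasminogen activator gene Plau rose by 0.35. Of 13 mitochondrially encoded genes 0 rose and 3 fell (median -0.16), and 0 fell with equal totals, 1 after GC correction or without IRX3_WT replicate 1, and 5 without IRX3_S389A replicate 2 or 3.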
